A study of Mus musculus with 4 samples.

Results

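The 7 genes described here encode the core of the NLRP3 inflammasome and the proteins that act after it: the sensor Nlrp3, the adaptor Pycard (also called ASC), the inflammatory caspases Casp1 and Casp4, the pore-forming gasdermins Gsdmd and Gsdme, and the cytokine Il18. They were taken as the rows with these symbols among the 57132 genes of the deposited matrices, and all 7 were found in all 4 libraries. Each library came from the kidney of 1 wild-type mouse with CIAKI, acute kidney injury brought on by a radiographic contrast agent. All 4 mice form 1 group. Controls were not analysed here, so every comparison sets cell classes of the same injured kidneys against each other, and the response to contrast itself was not measured. The sources used here give neither strain, age nor sex, and neither agent, dose nor time point.

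Inflammasomes are protein platforms that form in the cytosol after microbial or tissue-damage signals. NLRP3 recruits the adaptor ASC, ASC recruits caspase-1, and caspase-1 cuts gasdermin D, whose fragment forms pores in the plasma membrane, and matures the precursors of IL-1β and IL-18. Caspase-11, the product of mouse Casp4, binds cytosolic lipopolysaccharide and cuts gasdermin D without NLRP3. Gasdermin E is a related pore former that is cut during apoptosis. In the kidney these proteins are best known from infiltrating phagocytes, and epithelial cells are a described source of IL-18.

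Casp1 and Casp4 are neighbours on chromosome 9, both encode inflammatory caspases, and in endothelial-like cells their levels over the mice were unlike each other. The 250 bases before their annotated starts (RefSeq, build GRCm38.p6, plus strand) are chr9:5298267-5298516 for Casp1 and chr9:5308599-5308848 for Casp4, and are shown here because Casp4 diverged between libraries in endothelial-like cells and Casp1 did not. Capitals mark matches on either strand to a form of the NF-κB motif, which is GGG, 2 bases of any kind, TT, 1 base of any kind and CC.
Casp1: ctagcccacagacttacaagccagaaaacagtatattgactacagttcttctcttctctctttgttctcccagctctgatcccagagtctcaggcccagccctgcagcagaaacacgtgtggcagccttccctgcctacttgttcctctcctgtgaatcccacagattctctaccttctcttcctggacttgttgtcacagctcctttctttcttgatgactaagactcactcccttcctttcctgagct
Casp4: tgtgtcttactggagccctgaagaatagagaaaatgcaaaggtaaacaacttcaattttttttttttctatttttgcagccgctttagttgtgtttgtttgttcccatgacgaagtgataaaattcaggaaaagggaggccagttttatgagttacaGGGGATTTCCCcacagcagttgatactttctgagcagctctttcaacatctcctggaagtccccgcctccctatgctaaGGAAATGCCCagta
Windows were found for 6 of the 7 genes, all but Gsdmd. The Casp4 window shown held 3 matches, 2 of which overlap, and a second Casp4 window, which overlaps it, held the same 3. Of the Nlrp3 windows 1 held 1 match, and those of Casp1, Pycard, Gsdme and Il18 held none. Of 32851 such windows in the reference table, 4.11% held at least 1 match, and 2.98% held an interferon-factor motif, GAAA and again GAAA with 2 bases of any kind between, which no window of the 6 genes contained. A match is a description of the letters in the window, and binding was not measured. Whether the matches bear on the levels of Casp4 was not tested.

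The 4 matrices held 48213 barcodes and 273788487 unique molecular identifiers (UMIs, 1 for each captured transcript molecule), and 40826 cells were kept. Library totals ran between 36831995 and 105436725 UMIs. Mouse 4 stood apart: its cells had a median of 2077 UMIs against 5549 to 5777 in the other mice, and ribosomal protein genes took 14.5% of a cell's UMIs (median) against 1.57% to 2.55%. It shared 1 cell barcode with the other libraries, whereas mice 1, 2 and 3 shared 23, 42 and 54 in their pairs. Cells fell into 48 clusters, and 37 of them, with 36386 cells, were named for 16 cell classes from marker genes. The clusters were not mixed across mice: macrophage- and monocyte-like cells of mouse 3 came from clusters whose leading genes included Il12b and Il27 or Saa3 and Arg1 and from a smaller one led by cell-cycle genes such as Top2a, those of mice 1 and 2 mainly from 1 cluster led by Mrc1, and those of mouse 4 from 1 led by C1qa. Endothelial-like, T lymphocyte-like, neutrophil-like and proximal tubule-like cells were likewise divided over clusters by mouse. Neutrophil-like cells of mouse 3 came from clusters with Camp, Ngp and Ltf among their markers but not Csf3r, Cxcr2 or Retnlg. Most of those of the other mice came from 1 cluster with Csf3r, Cxcr2 and Retnlg. Of 793 proximal tubule-like cells of mouse 3, 520 lay in a cluster with the injury markers Havcr1 and Krt20. In mouse 4, 925 of 1311 lay in a cluster led by Gsta2. Marker lists were checked by their summed levels. That of the 10 neutrophil markers was 57471 to 271200 counts per 1000000 UMIs (CPM) in neutrophil-like cells against at most 8813 CPM in macrophage- and monocyte-like cells. The list of injured proximal tubule did not single out a class: it summed to 10563 to 16325 CPM in the cluster named from it, against 17577 to 53230 CPM in thick ascending limb-like, 23973 to 36153 CPM in distal convoluted tubule-like and 16107 to 56217 CPM in intercalated-like cells. That cluster carried these markers together with Ncam1 and Cldn1, known from the epithelium of the glomerular capsule, and is called injured-marker with no cell type implied. The S3 list of the proximal tubule summed to 29.0 to 235 CPM in proximal tubule-like cells, against 214 to 367 CPM in injured-marker cells. The thin limb list, at 668 to 3448 CPM in thin limb-like cells, overlapped with its 156 to 956 CPM in collecting duct and connecting tubule-like cells. Levels below are CPM, the UMIs of a gene per 1000000 UMIs of all cells of a class in 1 mouse, given for mice 1 to 4 in that order. Classes with under 20 cells in a mouse were left out, which limits dendritic-like cells to mouse 3 and NK-like and B lymphocyte- and plasma-like cells to mice 3 and 4. Mouse 4 had only 33 neutrophil-like cells, and 1 to 34 UMIs of each gene stand behind its values in them. A further 168 cells of mouse 4 lay in an unnamed cluster that had neutrophil markers but was led by haemoglobin genes.

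**Figure D1:**
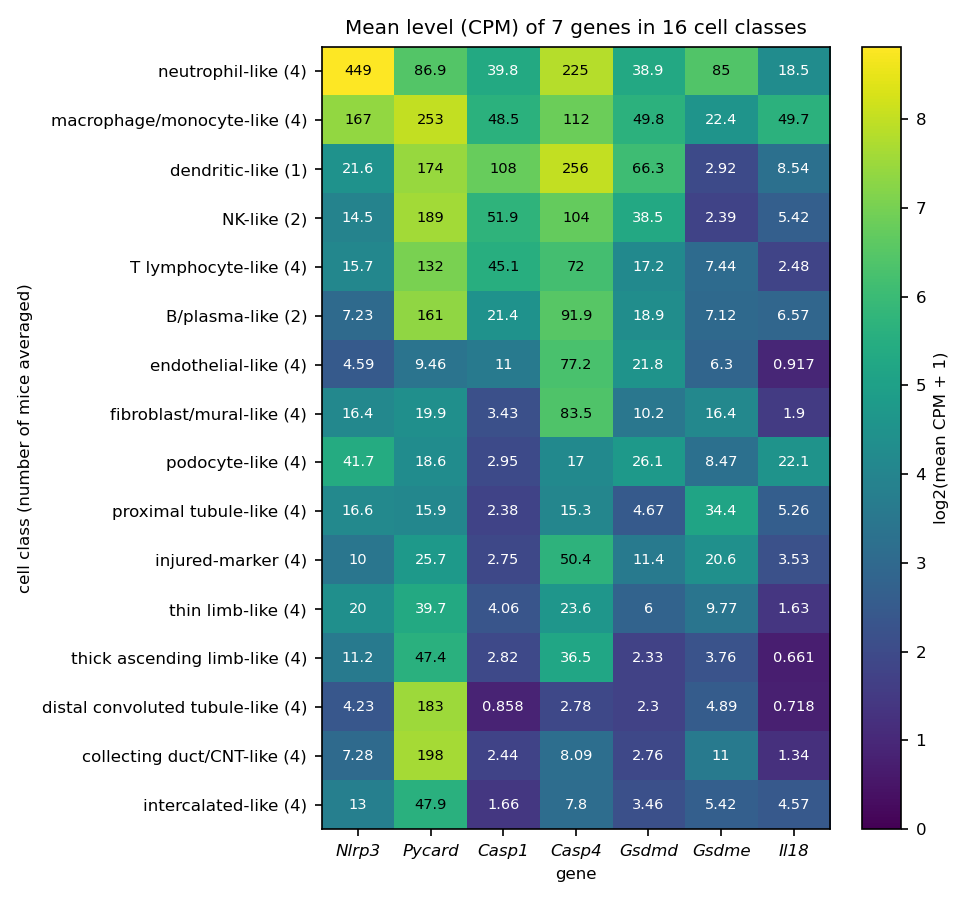
Mean level of the 7 genes (columns) in 16 cell classes (rows), printed in CPM and coloured by log2(mean CPM + 1); the number of mice averaged is in brackets. Nlrp3 peaked at 449 CPM in neutrophil-like cells, Il18 at 49.7 CPM in macrophage- and monocyte-like cells, and Pycard was also high in 2 distal nephron classes.

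Nlrp3, the sensor, was a gene of the phagocytes. In neutrophil-like cells its level was 632, 508, 222 and 433 CPM, a mean of 449 ± 172 CPM (SD, n = 4). In macrophage- and monocyte-like cells it was 351, 177, 52.9 and 85.8 CPM, a mean of 167 ± 134 CPM, which was 105 CPM without mouse 1. In each mouse neutrophil-like cells were the higher of the pair, and both classes were highest in mouse 1 and lowest in mouse 3. Nlrp3 UMIs were seen in 82.7%, 77.6%, 58.6% and 60.6% of neutrophil-like cells, and in 5.45%, 2.62%, 0.689% and 0.157% of endothelial-like cells. With every cell thinned to 1000 UMIs these shares were 41.5%, 35.2%, 19.4% and 42.4% in neutrophil-like cells, and at most 1.30% in endothelial-like cells.

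Outside phagocytes Nlrp3 was low, and its values are given beside what free neutrophil RNA could supply. S100a9, a calcium-binding protein gene of neutrophils, served as a tracer. If every S100a9 UMI of a class was carried over from neutrophils, carried-over Nlrp3 would, in mice 1 and 2, give thick ascending limb-like cells 23.2 and 9.85 CPM, where 31.6 and 12.6 CPM were measured. In fibroblast- and mural-like cells the bound was 36.4 and 15.9 CPM in these mice and the measured level 39.5 and 16.1 CPM. The measured values were close to the bound in fibroblast- and mural-like cells and further above it in thick ascending limb-like cells. The bound takes free RNA to have the average make-up of neutrophil-like cells and counts no other source. The part of carried-over RNA in these values was not tested. Podocyte-like cells had 111, 43.4, 7.20 and 4.84 CPM of Nlrp3, against bounds of 52.7, 36.9, 3.36 and 0.443 CPM. In macrophage- and monocyte-like cells the bound was 85.0, 15.7, 0.727 and 1.83 CPM, below the measured level in all 4 mice.

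**Figure D2:**
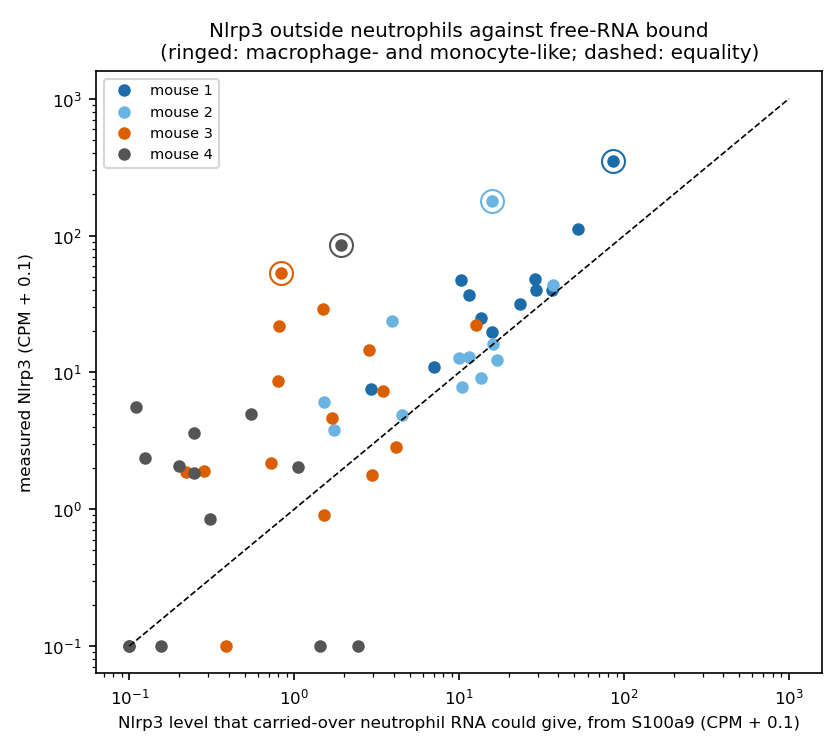
Measured Nlrp3 (vertical axis, CPM + 0.1, log axis) against the level that carried-over neutrophil RNA could give (horizontal axis, CPM + 0.1, log axis), 1 point for each class other than neutrophil-like and each mouse. Macrophage- and monocyte-like cells (ringed) lay above the dashed line of equality in all 4 mice, while most other points of mice 1 and 2 lay near it.

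Pycard, the adaptor that links sensors to caspase-1, was spread more widely than the sensor, and 2 distal nephron classes carried it at the level of immune cells. Macrophage- and monocyte-like cells had 124, 161, 411 and 316 CPM (mean 253 ± 134 CPM). Collecting duct and connecting tubule-like cells had 161, 53.7, 184 and 395 CPM, and distal convoluted tubule-like cells 99.1, 65.6, 213 and 354 CPM. These classes overlapped with macrophage- and monocyte-like cells over the mice, and the difference between the first pair (54.7 CPM) was smaller than its spread over mice (SD 140 CPM). Pycard UMIs were found in 48.3% to 68.7% of cells of the collecting duct and connecting tubule-like class, against 2.57% to 4.49% of endothelial-like cells. With the macrophage tracer C1qb, a complement gene, and free RNA of the average make-up of macrophage- and monocyte-like cells, carried-over Pycard came to 0.416 to 9.59 CPM for collecting duct and connecting tubule-like, and to 0.370 to 5.28 CPM in distal convoluted tubule-like cells. C1qb was not among the markers of the cluster with Saa3 and Arg1, which held 7731 Pycard UMIs in mouse 3, nor of smaller clusters of macrophage- and monocyte-like cells in all 4 mice, so this value is no upper limit for RNA from those cells. The measured levels were above it in all 4 mice.

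Elsewhere along the nephron Pycard was lower by CPM. Thick ascending limb-like cells had 36.0, 25.5, 68.9 and 59.4 CPM, proximal tubule-like cells 11.3, 4.34, 26.6 and 21.2 CPM, and endothelial-like cells, with the lowest mean of the 16 classes, 8.50, 4.84, 6.77 and 17.7 CPM. The last 2 classes did not differ beyond their spread over mice (difference 6.40 CPM, SD 9.15 CPM). In neutrophil-like cells Pycard was 25.3 and 21.3 CPM in mice 1 and 2, against 237 CPM in mouse 3 and 63.6 CPM, from 5 UMIs, in mouse 4. For the neutrophil-like cells of mouse 3 the C1qb value, with the same limit, was 127 CPM, whereas it was 2.95 and 1.57 CPM in mice 1 and 2. Nlrp3 and Pycard thus ran in opposite directions over the mice in both phagocyte classes, with the highest Nlrp3 and low Pycard in mice 1 and 2 and the lowest Nlrp3 with the highest Pycard in mouse 3. The clusters that make up these classes differ between the mice in the same way, and their part in the result was not tested.

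Casp1, the protease that the inflammasome activates, marked immune and endothelial cells. It was 34.3, 43.2, 70.1 and 46.4 CPM in macrophage- and monocyte-like cells. T lymphocyte-like cells had 53.0, 46.8, 32.3 and 48.4 CPM and neutrophil-like cells 26.3, 30.9, 89.2 and 12.7 CPM. Dendritic-like cells, measured in mouse 3 alone, had 108 CPM. The order of these immune classes was not set, as neighbouring means differed by less than their spread over mice. In endothelial-like cells the level was 11.1, 10.4, 11.5 and 10.99 CPM, with no mouse far from the others. Every tubular class averaged at most 4.06 CPM, and thin limb-like cells reached 14.0 CPM in mouse 3 from 7 UMIs.

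Casp4, the lipopolysaccharide-sensing caspase, was high in neutrophil-like cells of all mice at 200.3, 255, 266 and 178 CPM. Macrophage- and monocyte-like cells had 127, 87.2, 165 and 69.6 CPM, less than the neutrophil-like cells of the same mouse in each case. In stromal and several epithelial classes mouse 3 stood far above the other mice. Endothelial-like cells had 43.1, 37.9, 200.02 and 27.7 CPM, fibroblast- and mural-like cells 69.2, 33.4, 196 and 35.5 CPM, and thick ascending limb-like cells 13.3, 17.1, 97.9 and 17.6 CPM. Injured-marker cells followed with 38.9, 16.05, 125 and 21.4 CPM and thin limb-like cells with 8.52, 7.25, 72.0 and 6.77 CPM. Podocyte-like cells, at 22.9, 14.5, 20.8 and 9.68 CPM, and distal convoluted tubule-like cells, at 1.07, 6.56, 1.81 and 1.70 CPM, did not have mouse 3 highest. The values of distal convoluted tubule-like cells come from only 10 UMIs over the 4 mice, too few to order the mice. The mean in endothelial-like cells was 77.2 ± 82.1 CPM, and without mouse 3 it was 36.2 CPM.

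Casp1 did not share this pattern in endothelial-like cells, where mouse 3 had 11.5 CPM against 10.4 to 11.1 CPM in the others. The guanylate-binding proteins Gbp2 and Gbp5, which help caspase-11 reach bacterial lipopolysaccharide and are induced by interferons, were singled out after their values were seen. Gbp2 was 90.1, 94.2, 957 and 33.2 CPM in endothelial-like cells, and thick ascending limb-like cells had 7.70, 8.37, 1696 and 1.35 CPM of it. In distal convoluted tubule-like cells, where Casp4 stayed low, Gbp2 was 3.73, 9.84, 964 and 1.70 CPM. Gbp5 in endothelial-like cells was 51.6, 52.5, 837 and 14.0 CPM. Gbp5 in distal convoluted tubule-like cells was 2.13, 4.37, 219 and 0 CPM. Both genes were highest in mouse 3 in this class. Casp4 was not, but only 10 UMIs of it were seen there over the 4 mice, 6 of them in mouse 2. The order of the mice for Casp4 in this class is therefore not set. What set mouse 3 apart cannot be told from 1 animal, and its part in the Casp4 levels was not tested.

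**Figure D3:**
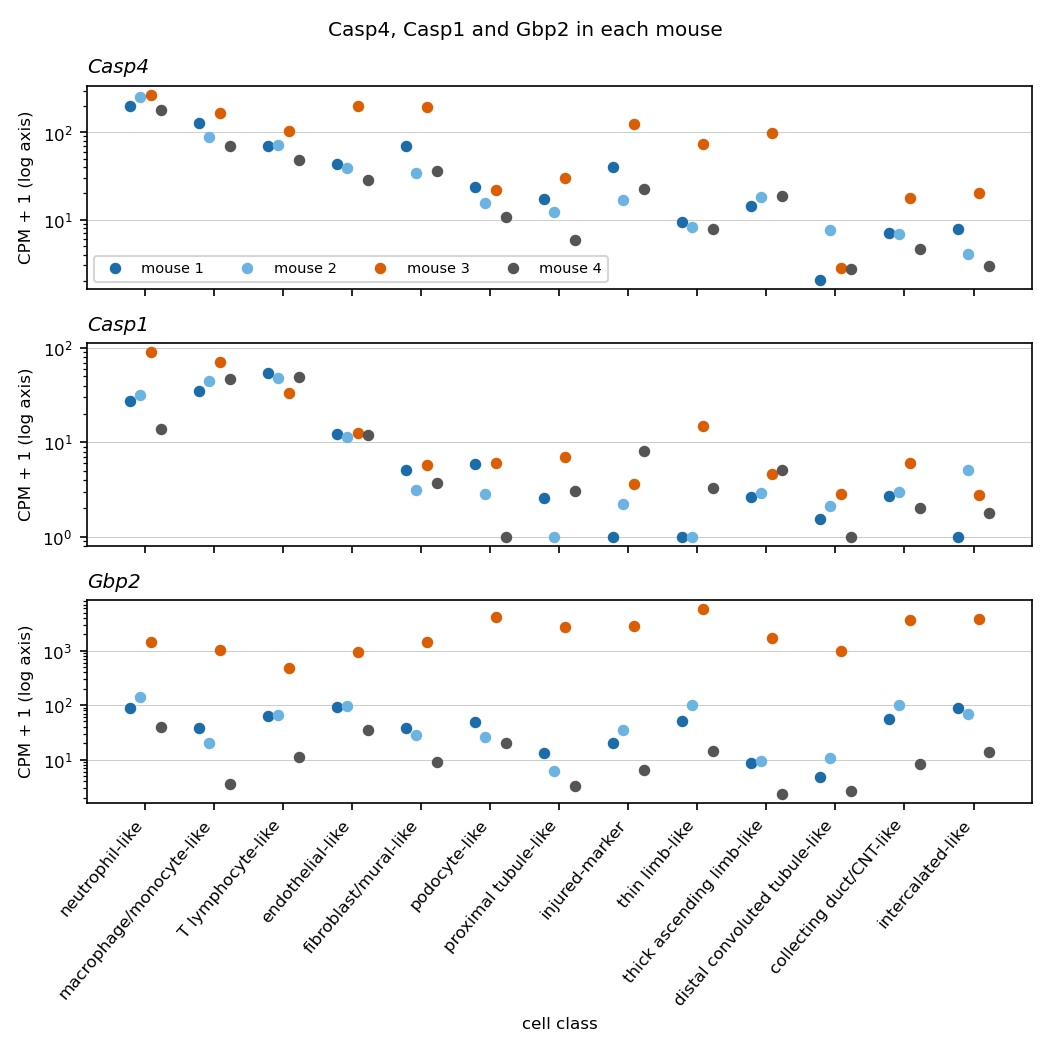
Levels of Casp4, Casp1 and Gbp2 (CPM + 1, log axis) in the 13 classes with at least 20 cells in all 4 mice, 1 point per mouse. Mouse 3 (orange) was highest for Gbp2 in every class shown, and for Casp4 in endothelial-like cells at 200.02 CPM. It was not highest for Casp4 in distal convoluted tubule-like cells (1.81 CPM), where only 10 UMIs were seen over the 4 mice.

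Gsdmd, the main pore former of pyroptosis, was present in immune, endothelial and podocyte-like cells. It was 38.1, 35.5, 84.2 and 41.2 CPM in macrophage- and monocyte-like cells and 29.0, 24.7, 76.4 and 25.4 CPM in neutrophil-like cells, with mouse 3 highest in both. Podocyte-like cells had 32.8, 12.7, 20.3 and 38.7 CPM, and endothelial-like cells 18.9, 18.7, 23.7 and 26.0 CPM. Thick ascending limb-like cells averaged 2.33 ± 1.31 CPM and proximal tubule-like cells 4.67 ± 3.13 CPM (SD, n = 4 each). Podocyte-like and endothelial-like cells did not differ beyond their spread (difference 4.33 CPM, SD 10.5 CPM).

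Gsdme, the gasdermin cut during apoptosis, had another distribution, with the highest means in neutrophil-like and proximal tubule-like cells. Neutrophil-like cells had 109, 88.0, 16.2 and 127 CPM, and proximal tubule-like cells 39.3, 50.3, 24.5 and 23.5 CPM. Mouse 3 was the exception, since only there did proximal tubule-like cells exceed neutrophil-like cells. In mouse 3 both classes came largely from clusters with few cells of the other mice, and the part of this in the exception was not tested. Injured-marker cells had 17.0, 22.2, 18.4 and 25.0 CPM, while thick ascending limb-like cells had 5.59, 6.08, 2.03 and 1.35 CPM. Macrophage- and monocyte-like cells had 43.9, 29.5, 2.79 and 13.2 CPM, in the same order over mice 1, 2 and 3 as Nlrp3. Proximal tubule-like cells did not exceed macrophage- and monocyte-like cells beyond the spread over mice (difference 12.0 CPM, SD 12.3 CPM). In the reference annotation (GENCODE vM21) Gsdme overlaps Pals2, listed there under its older symbol Mpp6, on the opposite strand, and whether the counting used strand is not given in the sources used here. Pals2 averaged 208 CPM in proximal tubule-like cells, against a mean of 30.6 CPM for thick ascending limb-like ones, so the 2 genes were high in the same tubular class and their reads cannot be told apart if strand was not used. In neutrophil-like cells Pals2 averaged 9.75 CPM, below the 85.0 CPM of Gsdme.

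Il18, the cytokine that caspase-1 matures, was a gene of macrophage- and monocyte-like cells, at 53.1, 71.0, 32.5 and 42.1 CPM. Podocyte-like cells followed with 27.9, 18.1, 3.81 and 38.7 CPM, from 17, 10, 9 and 8 UMIs, and neutrophil-like cells had 11.6, 9.26, 15.01 and 38.2 CPM. By the C1qb tracer, which is no upper limit here either, carried-over Il18 in podocyte-like cells came to 1.16, 3.13, 1.45 and 0.102 CPM, below each measured value. The tubular levels were low: intercalated-like cells had 6.77, 3.08, 1.76 and 6.66 CPM, proximal tubule-like cells 3.89, 0.867, 9.30 and 6.97 CPM, and thick ascending limb-like cells 0 to 1.36 CPM. In the thick ascending limb-like cells of mouse 2 no UMI was seen, which allows up to 1.14 CPM by counting error alone. Bco2 and Tex12 overlap Il18 on the opposite strand in the reference annotation, and they averaged 7.32 and 0.913 CPM in macrophage- and monocyte-like cells.

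**Figure D4:**
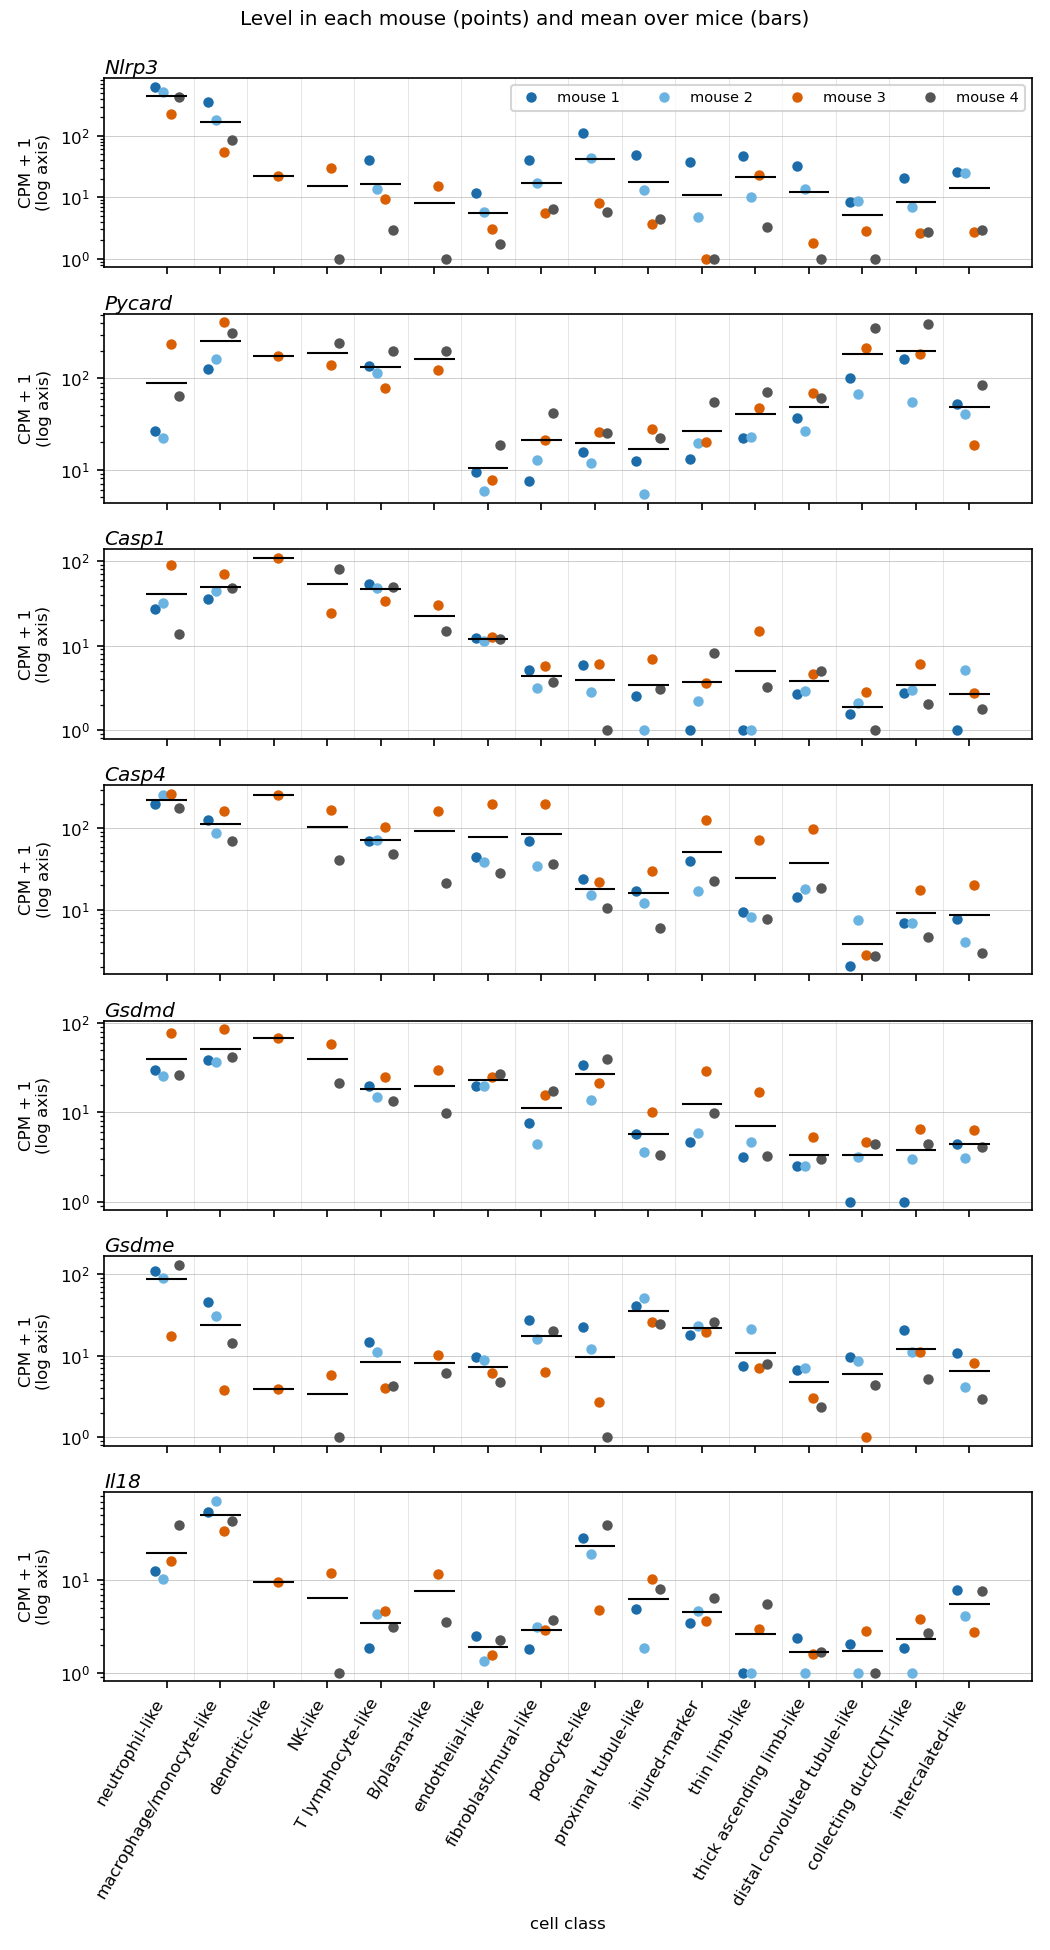
Level of each gene (CPM + 1, log axis) in each cell class, with 1 point per mouse and a bar at the mean over mice. Casp1 in endothelial-like cells lay between 10.4 and 11.5 CPM in all 4 mice, whereas Casp4 there ran between 27.7 and 200.02 CPM.

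Across the 16 classes the members fell into different company. Each profile was the mean over mice of log2(CPM + 1) in each class. Profiles were most alike between Casp1 and Casp4 (Pearson r = 0.869), Casp1 and Gsdmd (0.860) and Casp4 and Gsdmd (0.860), while Pycard and Nlrp3 had r = 0.118 and Gsdme and Casp1 −0.0696. Among genes outside the list, Nlrp3 was most like Cd300lf (0.975), Gm5150 (0.972) and Alox5ap (0.961), Casp1 most like Prex1 (0.976), Zbp1 (0.974) and Gvin-ps7 (0.962), and Casp4 most like Chst12 (0.952), Plekho2 (0.903) and Pip4k2a (0.898). Gsdmd was most like Crlf2 (0.937), Foxn2 (0.936) and Chst12 (0.926), and Il18 most like Tlr7 (0.903), Zeb2os (0.854) and Il6ra (0.848). The profiles with the least close partners were those of Pycard, with Mapkapk3 (0.870), Smim29 (0.851) and Ptpn18 (0.838), and of Gsdme, with Msra (0.820), F5 (0.794) and Atp6v1g1 (0.791). The classes share libraries and depth, so these values describe the profiles only.

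Whether myeloid or vessel-lining cells carry more of each transcript was asked by comparing macrophage- and monocyte-like with endothelial-like cells of the same mice. Il18 (log2 fold change 6.02, SE 0.42), Nlrp3 (5.31, SE 0.37), Pycard (4.89, SE 0.36), Casp1 (2.22, SE 0.19) and Gsdmd (1.24, SE 0.19) were higher in macrophage- and monocyte-like cells, with adjusted p between 5.14e-05 and 0.00189 (edgeR's quasi-likelihood test, Benjamini-Hochberg over all genes). These were 5 of the 7 genes, where 47.5% of 13597 genes tested were called in either direction and 24% higher. The median of the 7 was 2.22 against −0.02 over all genes. Casp4 (1.08, SE 0.37, adjusted p = 0.0510) and Gsdme (1.47, SE 0.61, adjusted p = 0.0880) did not pass, and without mouse 3 both did (1.61 and 2.26, adjusted p = 0.000114 and 5.54e-05). Of 41 further genes of the pathway 33 were tested, and 19 were higher and 7 lower. The directions differed by role: of 7 activators tested 2 were higher and 5 lower. Of 8 cytokine and receptor genes 6 were higher and 1 lower, and of 3 caspases 0 were higher and 1 lower. The 8 called sensors were all higher, among them Nlrp1b (6.79, SE 0.47), Nlrp1a (6.31, SE 0.44), the DNA sensor Aim2 (5.18, SE 0.35), Naip6 (5.08, SE 0.28) and Nlrc4 (4.91, SE 0.85), as was Pstpip1 (5.87, SE 0.42), a partner of pyrin. Reads of the near-identical Nlrp1 and Naip copies could be split between them, so their single values are uncertain.

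Neutrophil-like cells set against macrophage- and monocyte-like cells showed how the members divide between phagocytes. Gsdme (2.78, SE 0.34), Nlrp3 (2.34, SE 0.35) and Casp4 (1.72, SE 0.35) were higher in neutrophil-like cells, with adjusted p = 0.000457, 0.00117 and 0.00446 (edgeR). Pycard (−1.36, SE 0.41, adjusted p = 0.0207) and Il18 (−1.08, SE 0.38, adjusted p = 0.0400) were lower. Over all 13210 genes 43.4% were called, 19.3% higher and 24.1% lower, beside 5 of the 7 members, whose median was 0.44 against −0.04. The lower values of both Pycard and Il18 did not pass without mouse 1 (adjusted p = 0.0796 and 0.257) or without mouse 2 (0.117 and 0.380), nor without the mouse block (0.312 and 0.0911), and that of Pycard did not pass without mouse 4 (0.0733). Casp1 (0.44, SE 0.39) and Gsdmd (0.37, SE 0.33) did not pass (adjusted p = 0.377 and 0.383), and scaling by total UMIs in place of TMM turned them to −0.33 and −0.39. That scaling moved the median of all genes by −0.83 and the share of higher calls among all calls to 18.4%, against 44.4% with TMM, and left the 3 higher and 2 lower members as they were. Of the 41 pathway genes 33 were tested, and 14 were higher and 6 lower, and 7 of 8 cytokine and receptor genes were higher, including the decoy receptor Il1r2 (3.80, SE 0.53), Il18r1 (3.72, SE 0.60), Il1b (3.47, SE 0.65) and the antagonist Il1rn (3.32, SE 0.51). Nlrp12 (5.79, SE 0.72) and the protease inhibitor Serpinb1a (3.52, SE 0.40) were also higher. The lower genes were sensors and activators: of 9 sensors tested 2 were higher and 3 lower, and of 7 activators 2 were higher and 3 lower.

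Within the immune cells, macrophage- and monocyte-like cells exceeded T lymphocyte-like cells in 5 of the 7 genes. Il18 (4.45, SE 0.33), Nlrp3 (3.96, SE 0.46), Gsdmd (1.82, SE 0.19), Gsdme (1.69, SE 0.36) and Casp4 (0.90, SE 0.16) were higher, with adjusted p between 0.000256 and 0.0110 (edgeR), where 38.6% of 12237 genes were called and 22.2% higher. Pycard (1.13, SE 0.41, adjusted p = 0.0729) and Casp1 (0.38, SE 0.29, adjusted p = 0.340) did not pass. The median of the 7 was 1.69 against 0.03 over all genes. Gsdme did not pass without mouse 1, 2 or 4 (adjusted p = 0.0634, 0.0540 and 0.0574), and without the mouse block Gsdme and Casp4 did not pass (0.116 and 0.0704). With total UMIs 37.7% of all calls were higher, against 57.5% with TMM. Of the 41 pathway genes 32 were tested, and 16 were higher, led by Nlrp1a (5.23, SE 0.42), Il1a (4.16, SE 0.58), Nlrc4 (4.06, SE 0.68), Mefv (3.67, SE 0.35), which encodes pyrin, and Nlrp1b (3.37, SE 0.25). Among the 5 lower ones Il18r1, the receptor chain for IL-18, had −6.31 (SE 0.45), with a mean of 4.31 CPM in macrophage- and monocyte-like cells and 354 CPM in T lymphocyte-like cells. Ligand and receptor of the IL-18 pair were thus higher in opposite classes of this comparison.

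Endothelial-like cells differed from thick ascending limb-like cells in the effector genes and in the adaptor. Gsdmd (3.01, SE 0.28), Casp1 (1.86, SE 0.31) and Casp4 (0.94, SE 0.19) were higher in endothelial-like cells, with adjusted p = 0.0001, 0.00198 and 0.00486 (edgeR). Pycard was lower (−2.63, SE 0.25, adjusted p = 0.000106). Of 13008 genes 52.2% were called, 25.1% higher and 27.1% lower, and Il18 was too low to be tested, so 6 members were. Casp4 was higher within each mouse by CPM, and lost its call without the mouse block (adjusted p = 0.460). Nlrp3 (−0.97, SE 0.59, adjusted p = 0.203) did not pass, but without mouse 3 it was lower (−1.68, adjusted p = 0.00120). In mice 1 and 2 the bound from free neutrophil RNA was 6.97 and 4.41 CPM in endothelial-like cells. In the thick ascending limb-like class it was 23.2 and 9.85 CPM, below the measured levels of that class. The part of free RNA in the difference was not tested. Gsdme (0.61, SE 0.32) did not pass (adjusted p = 0.152). With total UMIs 58.8% of all calls were higher, against 48.1% with TMM. Of the 41 pathway genes 25 were tested, and 8 were higher, with the interleukin-1 receptor Il1r1 (4.52, SE 0.36), the ATP-gated channel P2rx7 (3.85, SE 0.32), Naip2 (3.82, SE 0.37) and Gbp5 (3.00, SE 0.66) in front, and 7 were lower, with Serpinb1a (−3.75, SE 0.32) and Il18r1 (−2.63, SE 0.38) lowest.

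Between nephron segments the members separated by gene. In proximal tubule-like against thick ascending limb-like cells Gsdme was higher (3.02, SE 0.26, adjusted p = 9.49e-06, edgeR), and Pycard (−1.78, SE 0.21, adjusted p = 8.62e-05) and Casp4 (−1.17, SE 0.34, adjusted p = 0.0219) were lower. Of 11911 genes 38% were called, and Casp1, Gsdmd and Il18 were too low to be tested. Gsdme was higher in all 4 mice and was called under each alternative tried, with Pals2 on its other strand high in the same class. Casp4 did not pass without mouse 3 (adjusted p = 0.0968) or mouse 4 (0.0925), and without the mouse block neither Casp4 nor Pycard did (0.217 and 0.0914). Nlrp3 (0.59, SE 0.39) did not pass (adjusted p = 0.276). With total UMIs 61.7% of all calls were higher, against 50.2% with TMM. Of the 41 pathway genes 23 were tested, and 2 were higher, Casp8 (1.04, SE 0.18) and Card19 (0.60, SE 0.16), and 4 were lower, among them Serpinb1a (−4.00, SE 0.34), the IL-18 inhibitor Il18bp (−1.77, SE 0.38) and Txnip (−1.20, SE 0.20), a redox protein that binds NLRP3.

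Intercalated-like cells, the acid-base cells of the collecting system, were set against thick ascending limb-like cells. Casp4 was lower (−2.33, SE 0.34, adjusted p = 0.00107, edgeR), where 27.7% of 10894 genes were called and 14.8% lower, and did not pass without the mouse block (adjusted p = 0.0989). Nlrp3 (0.11, SE 0.43), Pycard (−0.14, SE 0.33) and Gsdme (0.29, SE 0.48) did not pass (adjusted p between 0.699 and 0.885). Casp1, Gsdmd and Il18 were too low to be tested. With no filter on low counts Il18 was higher (2.29 on the log2 scale, SE 0.71, adjusted p = 0.0108, edgeR), from 33 UMIs in intercalated-like and 13 UMIs in thick ascending limb-like cells. With total UMIs 67.9% of all calls were higher, against 46.7% with TMM. Of the 41 pathway genes 20 were tested, and 5 were higher, Il1r1 (3.57, SE 0.36), Gbp5 (2.77, SE 0.65), Serpinb1a (2.46, SE 0.21), Gbp2 (2.29, SE 0.38) and Il18r1 (1.64, SE 0.49), and 3 were lower, among them Il1b (−1.54, SE 0.34).

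**Figure D5:**
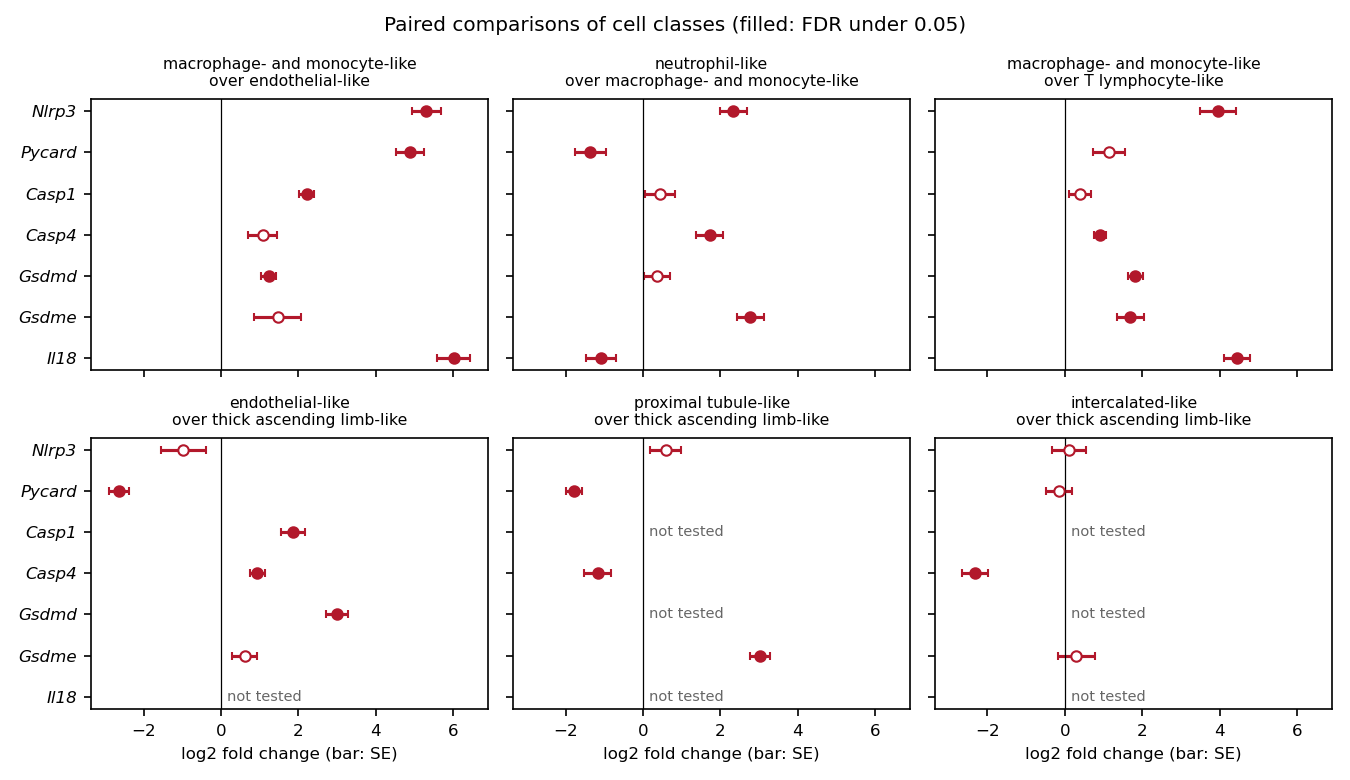
Log2 fold change of each gene in 6 paired comparisons of cell classes, first-named class over second, as points with bars of 1 SE (n = 4 mice each). Filled points passed an adjusted p of 0.05 in edgeR's quasi-likelihood test: 5 of 7 in macrophage- and monocyte-like over endothelial-like cells, and Casp4 alone in intercalated-like over thick ascending limb-like cells.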

How the data were processed

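Single-cell RNA sequencing libraries of 4 injured kidneys were used as deposited: the authors made matrices of UMI counts per gene and barcode with Cell Ranger 9.0.1, per the file headers, and Seurat 4.1.1 is named without a role in the submitters' processing notes. For genome build, annotation and strand setting, the value is not given in the sources used here. Members and gene lists were chosen with earlier results of these data known. Barcodes with at least 500 UMIs, at least 300 genes and under 50% mitochondrial UMIs were kept, which removed 5.11% to 25.5% per library. Scrublet called 0, 111, 1 and 1 doublets in mice 1 to 4, so it did not work in mice 1, 3 and 4. Cells were clustered with scanpy 1.11.5 (2000 variable genes, 30 principal components, 15 neighbours, Leiden resolution 1), without the members, the 41 pathway genes and mitochondrial and ribosomal genes, and clusters were named from marker lists. Counts were summed per mouse and class and tested with edgeR 4.0.16 (quasi-likelihood, TMM, filterByExpr, two-sided, Benjamini-Hochberg threshold 0.05), with the mouse as a block because both classes came from the same animals. DESeq2 1.42.0 was an alternative. The code was tested on simulated data. That the libraries are separate mice rests on the labels. Intervals and floors (3 counts) cover counting error only. Named were all members, for each comparison at most 6 called pathway genes with the largest fold change, and for each member the 3 genes with the most similar class profile among those with a mean of at least 10 CPM. The values of 1 pathway gene are not reported here.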

Additional observations from a re-analysis of the deposited data

Results flagged for a closer look

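Of 91 sets of 4 mice, 1 for each gene and class measured in all mice, 11 had 1 mouse whose gap to its nearest neighbour exceeded Dixon's 95% critical share of the range, and 7 of these were mouse 3. Chance flags about 1 in 20 such sets, and the sets share cells and libraries. Casp4 was apart in mouse 3 in endothelial-like cells (200.02 CPM, next 43.1 CPM), thick ascending limb-like cells (97.9 CPM, next 17.6 CPM) and thin limb-like cells (72.0 CPM, next 8.52 CPM). Gsdmd was apart in mouse 3 in macrophage- and monocyte-like cells (84.2 CPM, next 41.2 CPM), neutrophil-like cells (76.4 CPM, next 29.0 CPM) and thin limb-like cells (15.995 CPM from 8 UMIs, next 3.63 CPM). Casp1 in thin limb-like cells was 14.0 CPM in mouse 3 from 7 UMIs. In mouse 2, Casp4 in distal convoluted tubule-like cells was 6.56 CPM from 6 UMIs and Gsdme in thin limb-like cells 19.9 CPM from 11 UMIs. In injured-marker cells Nlrp3 was 36.5 CPM in mouse 1 and Pycard 53.5 CPM in mouse 4, each from 30 UMIs.

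Signal also lay outside the classes compared. The 7274 barcodes removed by the filters held 5.45 CPM of Nlrp3, 9.03 CPM of Pycard, 1.44 CPM of Casp1, 6.71 CPM of Casp4, 2.38 CPM of Gsdmd, 1.38 CPM of Gsdme and 0.878 CPM of Il18. The 4440 cells of the 11 unnamed clusters held 397 CPM of Nlrp3, 98.4 CPM of Pycard, 30.9 CPM of Casp1, 158 CPM of Casp4, 30.1 CPM of Gsdmd, 63.9 CPM of Gsdme and 25.4 CPM of Il18. The largest of these clusters, with 1877 cells, passed the marker rule for neutrophils alone and was left unnamed because haemoglobin genes such as Hbb-bs led it. Nlrp3 in it was 652, 513 and 565 CPM in mice 1, 2 and 4. Some other unnamed clusters carried neutrophil markers together with those of another class. The cells of all unnamed clusters entered no comparison at Leiden resolution 1.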

How the results depend on the processing

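The 23 calls of members were recomputed under each alternative setting, which gave 271 pairs of a call and a setting: 251 kept the call and direction, 20 lost it and 0 turned. Pairs in which the gene could not be tested are not among the 271. Both choices of scaling by total UMIs and of leaving mitochondrial and ribosomal UMIs out of the total were added after seeing the data. For neutrophil-like over macrophage- and monocyte-like cells, members called lower were 0 with no filter on low counts, 0 without the mouse block and 0 to 2 leaving out a mouse. For macrophage- and monocyte-like over T lymphocyte-like cells, 3 were higher without the block. For endothelial-like over thick ascending limb-like cells, 1 of 2 testable members was higher with cells thinned to 1000 UMIs, and 1 to 2 were lower leaving out a mouse. For proximal tubule-like over thick ascending limb-like cells, 2 were higher with DESeq2 and with no filter and 1 to 2 leaving out a mouse; 0 were lower without the block, 1 after thinning and 1 to 2 leaving out a mouse. For intercalated-like over thick ascending limb-like cells, 1 was higher with DESeq2 and with no filter, and 0 were lower without the block or after thinning. The block paired classes of the same mouse and changed no other count of calls by over 1.5 times.

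Signs turned only for members that had not passed: in neutrophil-like over macrophage- and monocyte-like cells Casp1 was −0.11 with DESeq2 and −0.33 with total UMIs, and Gsdmd −0.13 and −0.39. Nlrp3 in endothelial-like over thick ascending limb-like cells was 0.31 at Leiden resolution 0.5. In intercalated-like over thick ascending limb-like cells Nlrp3 was −0.064 without the block and −0.075 to −0.049 leaving out mouse 3 or 4, and Pycard 0.10 with total UMIs and −0.34 to 0.22 leaving out a mouse, positive without mouse 3. The cause was not tested. Of the mean levels under other settings, 24 moved by more than 1 SD and 921 were counted as not moved. The 921 include means that could not count as moved. Leaving out 1 mouse cannot shift a mean by 1 SD, and dendritic-like cells, from 1 mouse, have no SD. Single mice did carry some means: Nlrp3 in injured-marker cells was 10.04 CPM, and 1.23 CPM without mouse 1. Casp4 in thin limb-like cells was 23.6 CPM, and 7.51 CPM without mouse 3. Thinning left out 3410 shallow cells, and mouse 4 limits neutrophil-like values most.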

Other observations

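Among genes beyond the members, the cytokine gene Il1b was abundant in both phagocyte classes. Il1b, the precursor that caspase-1 matures, was 16362, 15425, 10613 and 3461 CPM in neutrophil-like cells, against 4083, 2030.3, 606 and 742 CPM in macrophage- and monocyte-like cells. It was the higher of the pair in neutrophil-like cells of every mouse. Within macrophage- and monocyte-like cells of mouse 3, the cluster with Il12b and Il27 among its leading genes had 268 CPM of Casp4 and 203 CPM of Pycard, and the cluster with Saa3 and Arg1 had 117 CPM of Casp4 and 525 CPM of Pycard. Both clusters come from 1 animal, so these values have no replicate.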
